A study of Mus musculus with 2 samples.

Results

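The osteoblast cluster miR-2861 and miR-3960 was examined in whole mouse femurs after ovariectomy. The members, mmu-miR-2861 and mmu-miR-3960, were taken by name from the mouse miRNA features of a single-colour Agilent array, on which they are 2 of 1881 miRNAs and have 4 of 4415 probes; each has 2 probes, and all 4 were used. Measurements came from female C57BL/6 mice of 9 months, marked wt in the series' design; both groups share this background. In 1 group the ovaries had been removed surgically (OVX), which ends most estrogen production, and in the other a sham operation had been done. Femurs with bone and marrow together were homogenised, tissue of 4 mice was mixed into 1 sample per group, and each sample was hybridised to 1 array. Bone cells, marrow blood cells and any attached tissue are therefore measured together, and fewer cells of a type cannot be told apart from less RNA per cell. With 1 array per group there is no replicate check and no test; "higher" and "lower" describe these 2 arrays, and the error given with a difference (spot SE) comes from the replicate spots of each probe within an array, so it holds no variation between mice.

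miR-2861 was first described in mouse osteoblasts, the cells that form bone. It represses the histone deacetylase HDAC5, which destabilises Runx2, the transcription factor that directs osteoblast formation. miR-3960 is made beside it and represses Hoxa2, a restraint on Runx2, and Runx2 in turn activates the cluster, so that both miRNAs are known as parts of a loop that favours bone formation.

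The hairpin precursors and the probes are printed because their base composition bears on how the arrays can be compared. In RefSeq (GRCm38.p6) both hairpins lie on the minus strand of chromosome 2, Mir2861 at chr2:32712807-32712888 and Mir3960 at chr2:32712900-32712972. The mature sequence of miR-2861, at chr2:32712819-32712837, is shown with its seed (bases 2 to 8) in capitals. In its hairpin the capitals mark the mature miRNA. The table held the hairpin but no mature entry for miR-3960, and the capitals in that hairpin mark the bases that pair with its longer probe.
miR-2861 mature: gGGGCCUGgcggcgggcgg
Mir2861 hairpin: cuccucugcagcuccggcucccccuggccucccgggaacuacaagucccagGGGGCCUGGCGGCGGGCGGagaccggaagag
Mir3960 hairpin: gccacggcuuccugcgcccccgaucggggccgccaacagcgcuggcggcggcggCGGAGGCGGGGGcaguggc

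The probes, from the array files and written 5′ to 3′, are very short. The 2 probes of each miRNA differ only by the last base, shown as a capital where present.
miR-2861, 9-base probe: ccgcccgcc
miR-2861, 10-base probe: ccgcccgccG
miR-3960, 11-base probe: cccccgcctcc
miR-3960, 12-base probe: cccccgcctccG

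The miR-2861 probes pair with bases 11 to 19 and 10 to 19 of the 19 bases of the mature miRNA, and the miR-3960 probes with bases 56 to 66 and 55 to 66 of the 73 of its hairpin. All 4 probes match the 3′ arm of their hairpin, and neither miR-2861 probe reaches the seed. Both miR-2861 probes consist of G and C alone, as do 9 probes on the whole array, and the miR-3960 probes have 90.9% and 91.7% GC. The median over all 4415 probes is 53.3% GC and 16 bases, and only 3 probes on the array have 9 bases. The array files give no genome match for the 4 probes, as for 2686 probes in all.

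The hairpins stand directly before Cdk9, which encodes the kinase that releases paused RNA polymerase II. RefSeq's window from 250 bases before to 50 bases after the start of Cdk9, chr2:32712735-32713034 (GRCm38.p6, minus strand), holds both hairpins whole and in the same orientation as Cdk9; it is printed 5′ to 3′ with Mir3960 and then Mir2861 in capitals.
Cdk9 window: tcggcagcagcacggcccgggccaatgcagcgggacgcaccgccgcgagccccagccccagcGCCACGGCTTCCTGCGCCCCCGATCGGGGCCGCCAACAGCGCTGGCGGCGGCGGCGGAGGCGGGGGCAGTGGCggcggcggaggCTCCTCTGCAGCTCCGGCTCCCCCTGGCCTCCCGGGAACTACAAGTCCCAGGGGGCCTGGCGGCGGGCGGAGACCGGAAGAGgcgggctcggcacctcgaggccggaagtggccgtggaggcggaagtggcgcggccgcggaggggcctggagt

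Mir3960 runs from 188 to 116 bases before the start and Mir2861 from 104 to 23, with 11 bases between them. The window has 78.3% GC, a value that 577 of 32851 RefSeq windows of this length (1.76%) reach or pass. The letters TGTGGT, a core recognised by RUNX factors, were searched on both strands and were not in this window. Of all windows, 16.8% hold them. Other forms of the core were not searched, nor was sequence of the cluster outside the window. The GC box letters GGGCGG had 1 match, from 40 to 35 bases before the start, where they are the last 6 bases of mature miR-2861; 35.7% of all windows hold them. A match or its absence describes these letters only. The hairpins share the base composition of the window. Mir3960 has 82.2% GC and Mir2861 73.2%, against a median of 51.7% over 1005 mouse hairpins. Folded with RNAfold, they reach -0.608 and -0.560 kcal/mol per base, where the median hairpin has -0.406; 4.68% and 7.36% of hairpins fold at least as tightly per base.

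**Figure D1:**
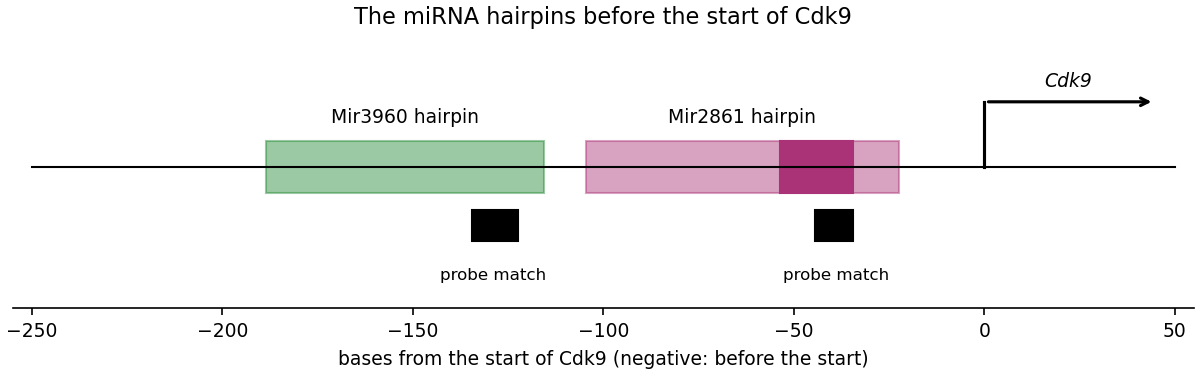
Map of the 300 bases around the start of Cdk9, with the position in bases from the start on the x axis. Pale boxes are the hairpins, the dark part of Mir2861 is the mature miRNA and black boxes are the bases that pair with the longer probe of each miRNA; Mir3960 ends 116 and Mir2861 23 bases before the start.

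Each array held 56430 miRNA spots. Of the 1881 miRNAs, 202 were present in sham and 299 in OVX, present meaning that more than 50% of a probe's spots stood well above background by the scanner software's flag; 197 were present on both. The OVX array was the brighter by a factor of 2.02 at the 75th percentile used for scaling. The labels call for marrow and bone. Marrow markers were detected: miR-451a and miR-144-3p of red cells, miR-223-3p of granulocytes and all 3 leukocyte miRNAs, miR-142a-3p, miR-142a-5p and miR-150-5p, were present on both arrays. Of 5 bone and connective tissue miRNAs, miR-140-3p and miR-140-5p of cartilage were present on both arrays, miR-199a-3p on the OVX array only, and miR-199a-5p and miR-214-3p on neither. Of 4 muscle miRNAs, 2 were present on the sham array and none on the OVX array (summed signal of their brightest probes 52.9 and 45.9 before scaling), and liver and brain miRNAs (3 in all) were on neither. After scaling, the log2 difference OVX minus sham was 0.63, 1.08 and 1.43 for the leukocyte miRNAs in this order. It was 0.28 for miR-451a, 0.85 for miR-144-3p and -0.63 for miR-223-3p. miR-486a-5p, also abundant in red cells but not on the marker list, had -0.71. miR-142a-3p, miR-142a-5p, miR-451a and miR-144-3p have probes under 40% GC, a range whose 29 miRNAs had a median of 0.55. Probes of miR-150-5p (50%), miR-223-3p (41.4%) and miR-486a-5p (74.2%) lie above that range. Before scaling, the summed signals of the brightest probes were 587.3 (sham) and 1979 (OVX) for leukocytes, 4130 and 10400.1 for red cells, 6212 and 8213 for granulocytes and 203.3 and 335.0 for bone and connective tissue. The part of these cells in the values below was not tested.

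miR-3960, the Hoxa2 repressor, gave a clear signal on both arrays. On the sham array the 15 usable spots of its 11-base probe ran from 93.4 to 130.6 with a median of 118.6, in background-subtracted intensity units before scaling. On the OVX array the same probe ran from 212.3 to 288.8 with a median of 265.5. The 14 usable spots of the 12-base probe ran from 104.3 to 133.3 on the sham array, with a median of 122.5. On the OVX array its 14 usable spots ran from 239.0 to 294.9, with a median of 263.2. Before scaling, all OVX spots of both probes were brighter than all sham spots, and the sets did not overlap. The arrays themselves differed by a factor of 2.02 at the 75th percentile. How many other probes separate in this way was not counted, so the separation is not given as a trait of miR-3960. Every usable spot was well above background on both arrays.

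Before scaling the 11-base probe was 2.24-fold and the 12-base probe 2.16-fold brighter on the OVX array, against the factor of 2.02 between the arrays. At the same place on both arrays the OVX spot was brighter before scaling in 15 of 15 pairs for the 11-base probe and in 14 of 14 for the 12-base probe. The factor between the arrays is included in these pairs, and the share over all probes was not counted. Once the arrays had been set to a common 75th percentile, the log2 difference OVX minus sham was 0.15 (spot SE 0.05) for the 11-base probe and 0.10 (spot SE 0.03) for the 12-base probe. Averaged over both, the scaled log2 level of miR-3960 was -0.12 (sham) and 0.01 (OVX). The difference was 0.13 (spot SE 0.03), which is 1.09-fold. This value depended on the scaling: it was 0.28 with the percentile over all probes, 0.38 over probes above 60% GC, 0.76 with scaling to 9 positive control probes, and -0.06 with median scaling.

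miR-2861, the HDAC5 repressor, was dim, although the brightness of different probes says nothing of the relative amounts of their miRNAs. The 15 spots of its 10-base probe ran from 13.6 to 33.8 on the sham array, with a median of 24.9. On the OVX array its 15 spots ran from 20.8 to 39.3, with a median of 31.9. These sets overlapped over most of their range, and the OVX spot was the brighter at 11 of 15 places. The probe was well above background in 13 of 15 sham spots and in 15 of 15 OVX spots, and all its spots were brighter than the brightest negative control spot of their array, 9.40 (sham) and 10.3 (OVX).

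The 9-base probe of miR-2861 was dimmer still. Its 15 sham spots ran from 3.04 to 18.4 with a median of 11.97, and 1 of them was well above background. Its 14 usable OVX spots ran from 15.6 to 27.6 with a median of 22.2, and 9 were well above background. The OVX spot was brighter at 14 of 14 places, but the sham signal is a bound only. The scaled log2 difference of this probe, -0.12 (spot SE 0.15), is therefore uncertain and was not used. It lay far from the -0.71 of the 10-base probe. Over 139 miRNAs with 2 or more measured probes, the median gap between probes was 0.09. The level of miR-2861 on both arrays therefore rests on the 10-base probe.

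**Figure D2:**
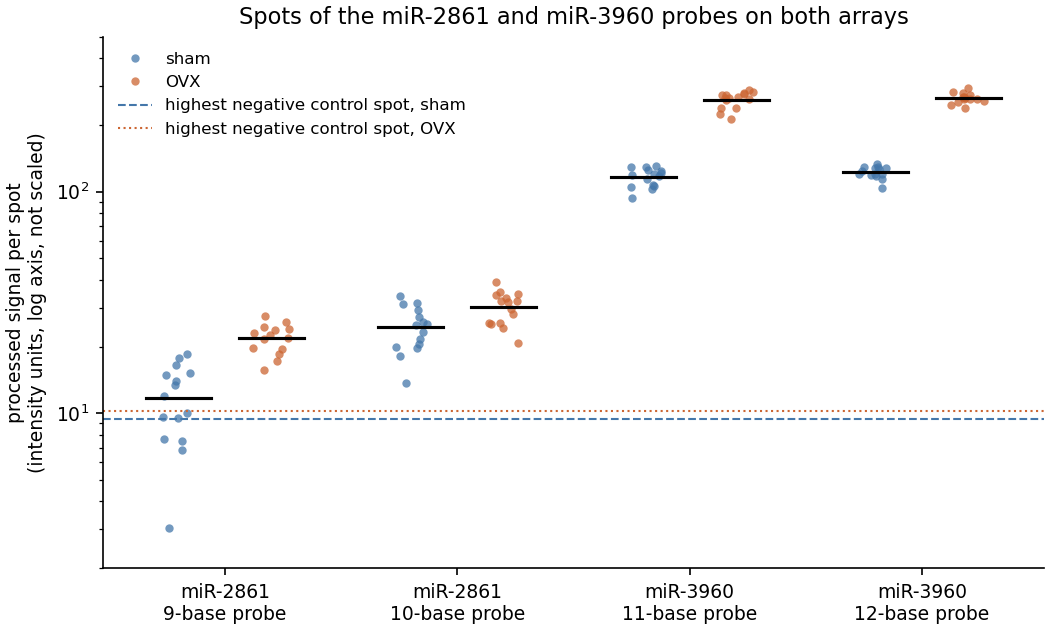
Background-subtracted signal of each usable spot (points) and the mean (bars) for the 4 probes on the sham and OVX arrays, on a log axis and not scaled between arrays; the horizontal lines are the brightest negative control spots. The arrays differ by a factor of 2.02 at the 75th percentile. Without scaling the miR-3960 spots separate by array, while those of the 10-base miR-2861 probe overlap. How many other probes separate was not counted.

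Before scaling the 10-base probe was 1.23-fold brighter on the OVX array, well short of the factor of 2.02 between the arrays. The scaled log2 level of miR-2861 was -2.40 (sham) and -3.11 (OVX). The difference was -0.71 (spot SE 0.11), which is 0.611-fold. The direction depended on the scaling: without it the difference was 0.30, and with scaling to the positive control probes, by which the OVX array was the brighter by 0.38 on the log2 scale, it was -0.07. At 14 of 15 places the log2 ratio of the 10-base spots fell short of the 1.01 that separates the arrays.

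Neither miRNA differed by 2-fold. Of the 197 miRNAs present on both arrays, 4 (2.03%) were higher in OVX by 2-fold or more, and 4 (2.03%) were lower by as much. At 1.5-fold, 22 were higher (11.2%) and 29 lower (14.7%); miR-2861 was 1 of these 29 and miR-3960 was in neither count. The 14.7% belongs to the 1.5-fold cut. miR-2861 lay further out, at 0.611-fold, and 19 of the 197 were at or below its difference, itself included. Ordered by their differences from the lowest of the 197, miR-2861 stood at place 19 and miR-3960 at place 124. The median of all was -0.04, with quartiles of -0.36 and 0.28, so that miR-3960 lay between the quartiles and miR-2861 below them.

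The gap between the neighbours does not depend on a constant set for each array, since such a constant cancels. Differences between the arrays that vary with level or probe GC do not cancel. miR-3960 minus miR-2861 was 0.84 on the log2 scale (spot SE 0.11), a 1.78-fold unequal change between hairpins 11 bases apart. This value rests on the longer miR-2861 probe. With the 9-base probe, whose sham signal is a bound only, the gap was 0.25 (spot SE 0.16). The size of the gap therefore depended on the miR-2861 probe used. The value of 0.84 is larger than the spread between spots, but that spread holds no variation between mice or arrays. The gap was computed after the data had been seen, and so were the comparisons with the median of the measured miRNAs. Of the 19 alternative ways of processing that measured both miRNAs, 5 add a constant to an array and leave the gap as it is by construction. In the other 14 the gap ran from 0.54 to 0.87, with the lowest value where probes with at least 1 spot well above background were used. In these 14 miR-2861 lay below the median of the measured miRNAs, by 0.16 to 0.69. miR-3960 lay above that median, by 0.11 to 0.57, in the 15 of this kind that measured it.

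**Figure D3:**
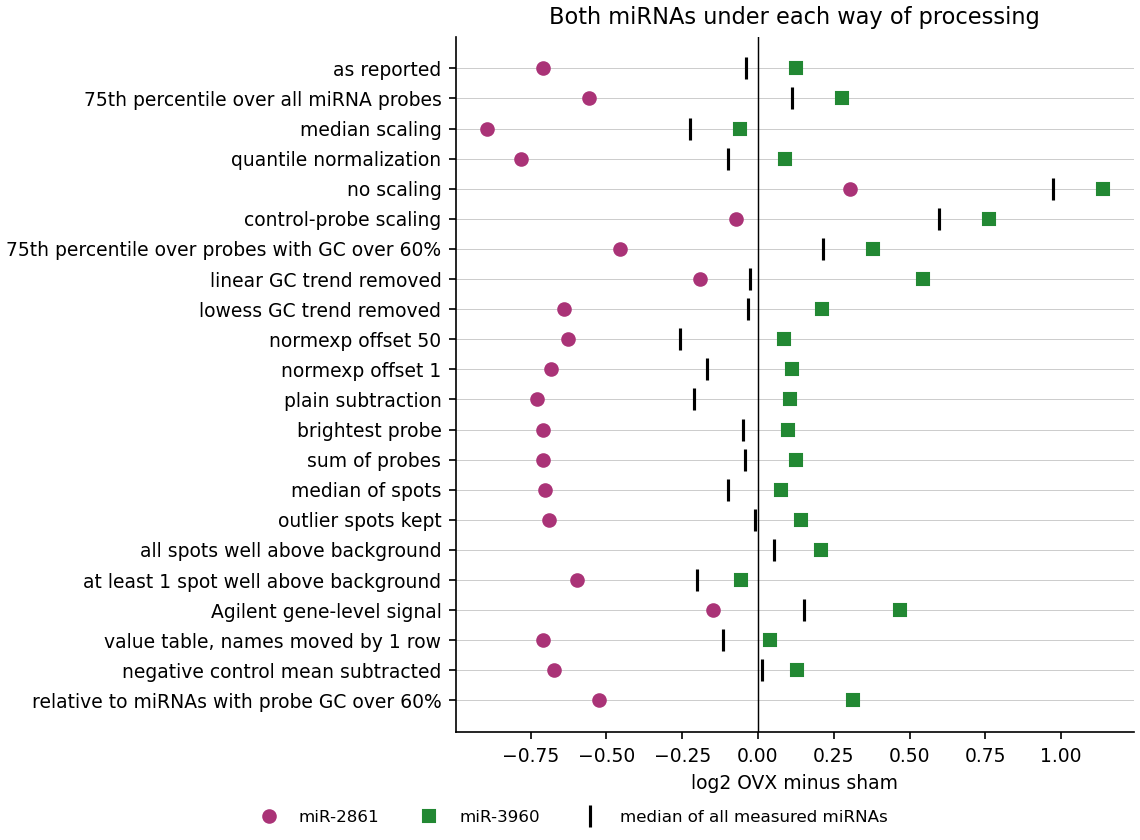
Log2 difference OVX minus sham of miR-2861 (circles) and miR-3960 (squares) under each way of processing, with the median of all measured miRNAs (ticks; not drawn for the last line). The 2 miRNAs shift together with the scaling, from -0.89 and -0.06 with median scaling to 0.30 and 1.14 without scaling, and miR-2861 stays to the left of miR-3960 wherever both were measured.

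Base composition, and less steadily brightness, moved with the difference between the arrays. Across the 197 miRNAs, which share the arrays and their labelling, the difference was lower at higher probe GC content (Spearman's rho -0.32). The median difference was 0.55 for the 29 miRNAs with probes under 40% GC, -0.06 for the 95 from 40% to 60% and -0.19 for the 73 over 60%. Of these 73, 9 were at or below miR-2861 and 17 at or above miR-3960, both members included. When a linear GC trend was removed, miR-2861 was at -0.19 and miR-3960 at 0.54, whereas a lowess trend, which follows the local points, left them at -0.64 and 0.21. A linear trend reaches far beyond most of the data at these compositions, since 4 of the 197 miRNAs have a probe GC at or above that of miR-3960, both members among them. The differences of these 4 ran from -0.71 to 0.29, with a median of -0.03.

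Brightness moved with the difference more weakly and not steadily (Spearman's rho 0.22). In 4 groups by level, from the dimmest to the brightest, the median differences were -0.28, -0.01, 0.22 and -0.01. miR-2861 stood at place 17 of 197 in order of mean signal from the dimmest. Among the 50 dimmest miRNAs the median difference was -0.28 with quartiles of -0.71 and 0.04, and 13 of the 50 were at or below miR-2861, itself included. miR-3960 was among the 49 brightest, whose median was -0.01 with quartiles of -0.34 and 0.25. Among the 12 miRNAs whose measured probes had 12 bases or fewer on average, 8 were below 0 and the median was -0.20. Their part in the difference of miR-2861 was not tested.

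**Figure D4:**
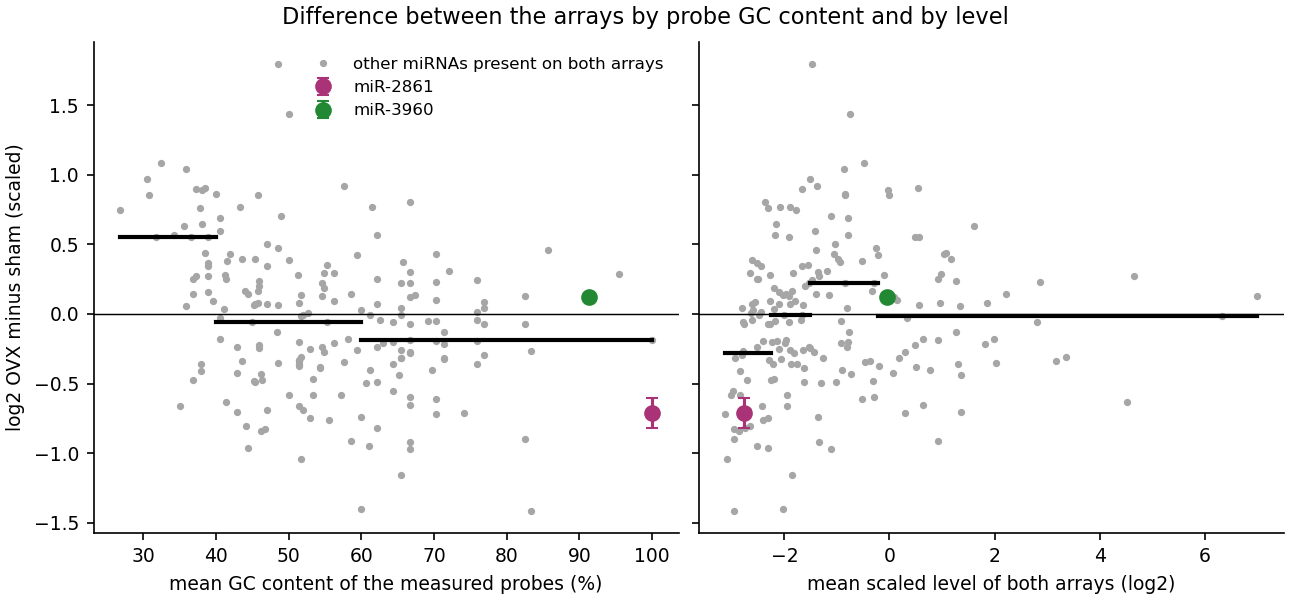
Scaled log2 difference OVX minus sham of each of the 197 miRNAs present on both arrays against mean probe GC content in percent (left) and mean scaled level (right). Coloured points are miR-2861 and miR-3960 with their spot SE, and black bars are medians of the GC ranges (0.55, -0.06 and -0.19) and of 4 groups of 49 or 50 by level; miR-2861 is among the miRNAs highest in GC and lowest in level.

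The miRNAs nearest in probe composition spanned a wide range of differences. For miR-2861 they were miR-5126 (100% GC), at -0.18 (spot SE 0.02), miR-8110 (95.5%), at 0.29 (spot SE 0.02), miR-714 (85.7%), at 0.46 (spot SE 0.06), and at an equal distance miR-7044-5p and miR-7686-5p (83.3% each), at -0.27 and -1.41. The last 4 of these 5 were also the nearest to miR-3960. miR-5126 is of further interest because no other mature miRNA of the 1678 in the table shares a longer run with the bases that the miR-2861 probes detect. The longest run that miR-7687-5p shares with the miR-3960 probes is as long. Both are printed with the shared bases in capitals.
miR-5126: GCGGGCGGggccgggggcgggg
miR-7687-5p: AGGCGGGGaaccugaggcgcaggcu

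Each shared run has 8 bases, against 9 to 12 in the probes. The brightest miR-5126 probe had a signal of 283.8 in sham and 487.0 in OVX. miR-7687-5p was present on neither array, with 1.78 in sham and 7.18 in OVX. No other mature miRNA and none of 1004 other hairpins held the whole stretch that any of the 4 probes detects, and no other probe on the array contained one of the 4 or was contained in one. Other kinds of RNA were not searched for these stretches. Whether miR-5126 adds signal to the miR-2861 probes was not tested.

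In its difference miR-2861 stood nearest to miR-486a-5p (-0.71, spot SE 0.03), which is abundant in red cells and muscle, miR-1949 (-0.71, spot SE 0.03), miR-7022-3p (-0.72, spot SE 0.06) and miR-378a-3p (-0.69, spot SE 0.05), which lies in the gene of a mitochondrial regulator. miR-3960 stood nearest to miR-7005-5p, miR-6366, miR-30a-5p and miR-188-5p, which had 0.13 each. Likeness here is the distance in log2 OVX minus sham over 2 arrays, and with a pair of values many miRNAs lie close.

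The only other miRNA in the table with the seed of miR-2861 was miR-3091-3p, printed with the seed in capitals.
miR-3091-3p: cGGGCCUGaccagucucaagac

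It was present on neither array, with a brightest probe of -2.34 in sham and -2.31 in OVX, within the range of the negative control spots. Within 1 Mb of the cluster RefSeq places 4 other miRNA hairpins, those of miR-3154, miR-199b, miR-1954 and miR-8093. The array measures miR-3154, miR-199b-5p, miR-1954 and miR-8093 under these names, and none of them was present on either array. The brightest of their probes had 2.76 in sham and 5.22 in OVX, for miR-199b-5p. No probe bears the name miR-199b-3p, so nothing is said here of that arm under its own name. Whether probes of another name, such as those of miR-199a-3p (present on the OVX array only), detect that arm was not tested. Absence was usual on these arrays, where 1577 of the 1881 miRNAs (83.8%) were present on neither.

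The cluster acts through Runx2. Of 12 miRNAs that repress Runx2 itself, 8 were present on neither array, where 83.8% of all 1881 miRNAs were on neither; among the 8 were miR-204-5p and miR-211-5p, which turn mesenchymal cells from bone towards fat. miR-133a-3p, also a muscle miRNA, was present on the sham array only, with a brightest probe of 19.5 there and 10.8 in OVX. miR-338-3p was present on the OVX array only, with 16.9 in sham and 29.5 in OVX. The 2 measured on both arrays were miR-23a-3p at -0.33 (spot SE 0.04) and miR-30c-5p at -0.20 (spot SE 0.05), neither of them past 1.5-fold; their median was -0.27, beside -0.04 for all 197 measured miRNAs.

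Of 10 other miRNAs reported to favour osteoblasts, 7 were measured on both arrays, with a median of 0.24 beside -0.04 for all 197. These medians are not matched for probe GC. miR-29b-3p, miR-29c-3p and miR-322-5p have probes under 40% GC, where the median of all such miRNAs was 0.55. The rest of the 7 lie from 40% to 60%, where it was -0.06. None of the 7 passed 2-fold, beside 2.03% of the 197 in each direction. At 1.5-fold 2 of the 7 were higher and 1 lower, beside 11.2% and 14.7% of the 197. The 3 members of the miR-29 family, which represses collagens and osteoblast inhibitors, differed in size: miR-29a-3p had 0.39, while miR-29b-3p had 0.89 and miR-29c-3p had 0.90. miR-20a-5p, which represses the fat-cell regulator PPARγ, had 0.24, and miR-322-5p had 0.09. miR-15b-5p was at -0.34 and miR-378a-3p at -0.69, close to miR-2861. miR-2861 was lower than all 7, though its distance from miR-378a-3p, 0.02, was smaller than the spot SE of either. miR-3960 lay between miR-322-5p and miR-20a-5p. Without scaling every difference in both lists is higher by 1.01 and all 9 are above 0, from 0.32 for miR-378a-3p to 1.91 for miR-29c-3p.

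The authors' own values gave the pair the same order. In the deposited log2 value table, with the row names moved by 1 row as the scanner files require, miR-2861 went from 3.70 (sham) to 2.99 (OVX), with a difference of -0.71. miR-3960 went from 6.41 (sham) to 6.45 (OVX), with a difference of 0.04. In the scanner software's signal per miRNA, which summarises its probes, miR-2861 had 7.67 in sham and 14.3 in OVX, and miR-3960 had 50.6 and 144.9. Scaled to the 75th percentile, these gave -0.15 and 0.47, so the gap was 0.62 there and 0.75 in the value table.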

How the data were processed

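The deposited scanner files hold intensities per spot, made with Agilent Feature Extraction (10.7.1.1 per the file headers, 11.0.1.1 per the submitters' processing notes) from Cy3-labelled RNA on 1 slide. The intensity used had undergone background subtraction and spatial detrending by the authors, per the file headers, with no step that sets arrays equal. The deposited value table of the series is on a log2 scale; how it was normalized is not given in the sources used here. The column medians, -3.18 (sham) and -3.32 (OVX), are the floors of the columns. Its names fitted the scanner files only when moved by 1 row (Spearman 0.996 and 0.994, as printed 0.02 and 0.04), so it served as an alternative. Its centring is unknown.

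Spots flagged as outliers were left out; control spots entered only the checks of background and some alternatives. For each probe the mean intensity over spots was taken, then its log2, set relative to the 75th percentile of their array, taken over the 350 probes that stood well above background in sham and in OVX. Levels of miRNAs are means over those of their probes that belong to the 350. The precision is limited by 1 array per group, so folds of 2 and 1.5 stand in for tests. Named miRNAs were the members, those sharing a seed, those within 1 Mb, the 4 nearest in difference and in probe GC, and the measured members of each list; miR-7687-5p, and the list members named though not present on both arrays, were chosen after their values were seen. The files gave the members no coordinates, so neighbours were taken from RefSeq (GRCm38.p6), which matched 1608 of the 1881 miRNAs by mature name. The miRNAs and lists were chosen with earlier results of these data known. The calculation of differences was tested on simulated arrays that carried the detection flags of the sham array and a constant factor between arrays. Such a test cannot speak to detection, to the choice of scaling or to a dependence on GC content. Software was Python 3.11.15, R 4.3.3, limma 3.58.1 (normexp) and RNAfold 2.7.2.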

Additional observations from a re-analysis of the deposited data

How the results depend on the processing

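miR-2861 was below 0 in 19 of 20 alternatives and miR-3960 above 0 in 19 of 21. The differences of miR-2861 and miR-3960 were 0.30 and 1.14 on unscaled arrays, -0.073 and 0.76 when control probes set the scale, -0.19 and 0.54 after removal of a linear GC trend, and -0.15 and 0.47 in the scanner software's signal per miRNA. miR-3960 alone moved by more than its spot SD under the 75th percentile over all probes (0.28) or over probes above 60% GC (0.38), median scaling (-0.059), probes with at least 1 spot well above background (-0.057), and relative to the miRNAs above 60% GC (0.31, added after the data had been seen, as was subtraction of the negative controls). Their gap is unaffected by 5 alternatives by construction and was above 0 in the other 14. With the 9-base probe used for miR-2861, which is not among these alternatives, the gap was 0.25 (spot SE 0.16).

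The counts at least 2-fold higher and lower in OVX, 4 and 4 as reported, were 97 and 0 on unscaled arrays, 40 and 0 when control probes set the scale, 17 and 2 with probes above 60% GC, 2 and 12 with median scaling, 24 and 28 in the signal per miRNA, 10 and 43 in the deposited value table, 0 and 0 with normexp at an offset of 50, 2 and 2 with an offset of 1 and with plain subtraction, and 22 and 29 at 1.5-fold. All probes as the base for the percentile gave 12 higher, and the linear GC trend 2 higher. The count lower was 7 with quantile normalization and with medians of spots, 2 where all spots had to be well above background and 16 where 1 spot sufficed. The median of the miRNAs above 60% GC, -0.19 as reported, was -0.035 with all probes, -0.37 with median scaling, 0.83 without scaling, 0.45 with control probes, 0.067 with probes above 60% GC, 0.045 and -0.036 after linear and lowess GC trends, -0.36 with normexp at 50, -0.34 with plain subtraction and with 1 spot sufficing, and 0.10 in the signal per miRNA. The cause was not tested.

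Requiring all spots well above background gave no value for miR-2861, whose sham signal of 24.4 on the 10-base probe is near the lowest signal called well above background there, 17.8. Leaving out a replicate was not possible with 1 array per group. No paired analysis was possible because each group holds 1 sample and no test was run.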
